A study of Mus musculus with 6 samples.

Results

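Protein-coding genes were collected that every library of periostin-silenced mouse sarcoma cells carried at a clearly higher level than any control library. The rule kept protein-coding genes outside chromosomes 12 and 18 whose lowest shPostn level was at least 2 times the highest shSCR level and whose mean shPostn level was at least 1 CPM. CPM are counts scaled to a common library total. Of the 35727 genes counted, 20643 were protein-coding and outside those chromosomes, 10994 of these reached the mean of 1 CPM, and 54 met the rule as written. For Rsc1a1 and a second identifier of Nnt all shSCR libraries and the lowest shPostn library had 0 counts, so the ratio was 0 over 0. Rsc1a1 had 60 counts in shPostn replicate 3 alone and the second Nnt identifier 221 in shPostn replicate 1 alone. These 2 were set aside, which left 52 gained genes, 0.473% of the 10994. The same rule turned around, with shSCR as the higher group, found 134 genes.

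All 6 libraries came from the tumour cell line p53 KO Ccne1 OE. It was made from mesenchymal stem cells of female C57/Bl6 p53KO mice by retroviral overexpression of Ccne1 with the RFP tracer, and was passed through female wild-type C57/Bl6 mice before use. The cells are labelled as undifferentiated pleomorphic sarcoma. The line received a viral hairpin against Postn (genotype shPostn, 3 libraries, titled Postn-KO) or a scrambled hairpin (genotype shSCR, 3 libraries, titled Postn-WT), was grown as tumours in mice and was sorted as RFP+ cells. Each group therefore stands on cells of the same p53KO and Ccne1 OE background and on 1 hairpin, and the labels give neither the age of the mice nor which tumour a library came from. P-values of this comparison then measure only the spread between these libraries, which may be technical, and a difference between the cell lines unrelated to periostin cannot be told apart from an effect of the hairpin. Library totals lay between 19603269 and 20376554 counts. In a principal component analysis shPostn replicate 3 stood apart on the second component (33.4% of the variance), and it had the highest sums of 9 pan-leukocyte markers (330 CPM, against 25.1 to 81.2 CPM elsewhere) and of 10 macrophage markers (1110 against 53.6 to 223 CPM). Without it 70 genes met the rule, since fewer libraries had to clear the ratio. Postn itself had 4115, 3618 and 3201 CPM in shSCR against 212, 475 and 644 CPM in shPostn, so the groups did not overlap and the shPostn mean was 12.2% of the shSCR mean. The p of an exact 2-sided permutation test was 0.1, which is the lowest possible with 3 libraries a group.

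Periostin is a secreted matricellular protein that binds collagens and other matrix proteins and signals into cells through integrins. Cells of mesenchymal origin, such as the stem cells from which this line was made, can enter fibroblast, smooth muscle, cartilage and bone programmes, and sarcoma cells often carry a mixture of these together with genes better known from nerve cells. The gained genes were chosen on the difference between shPostn and shSCR, so their levels and folds are given as a description, with no test. All 51 gained genes that entered an edgeR fit over 12819 genes were called higher at an adjusted p under 0.05, against 4.61% of all genes tested (5.53% were called lower); the rule used the same contrast, so nothing is read from that count. The remaining gene, Myh7, did not enter the fit, as its counts were too few in every library but shPostn replicate 3. Every shPostn library lay above every shSCR library at 15.9% of the 10994 protein-coding genes, and by the rule at all 52 gained genes.

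The promoter windows of 6 gained genes are shown because they belong to the largest gain (Ptprg), to the gained cytokine receptor with the widest separation (Lepr) and to a pair of closely neighbouring gene pairs described further on (Lrrc15 with Cpn2, and Rgl3 with Epor). Each runs 5′ to 3′ on the gene's strand from 250 bases before to 50 bases after the RefSeq start nearest the gene's 5′ end (RefSeq, GRCm38.p6). Capitals mark matches on either strand to CATTCC (the core bound by TEAD factors), CAGAC (the core bound by SMAD factors), TGACTCA or TGAGTCA (the AP-1 site), CAGCTG (an E-box) or the CArG box of serum response factor.
Ptprg, chr14:11553303-11553602, plus strand: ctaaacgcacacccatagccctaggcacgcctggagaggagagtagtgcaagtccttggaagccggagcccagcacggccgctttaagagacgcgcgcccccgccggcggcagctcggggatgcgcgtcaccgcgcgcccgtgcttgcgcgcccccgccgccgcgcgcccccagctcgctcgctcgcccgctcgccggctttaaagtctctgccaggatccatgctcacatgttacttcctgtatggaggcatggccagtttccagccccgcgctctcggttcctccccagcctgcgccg
Lepr, chr4:101717157-101717456, plus strand: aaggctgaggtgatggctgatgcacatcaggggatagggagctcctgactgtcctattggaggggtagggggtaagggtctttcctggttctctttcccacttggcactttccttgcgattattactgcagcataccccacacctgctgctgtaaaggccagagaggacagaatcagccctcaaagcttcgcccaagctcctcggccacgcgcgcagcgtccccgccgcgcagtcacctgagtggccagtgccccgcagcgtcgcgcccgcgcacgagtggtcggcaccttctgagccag
Lrrc15, chr16:30283205-30283504, minus strand: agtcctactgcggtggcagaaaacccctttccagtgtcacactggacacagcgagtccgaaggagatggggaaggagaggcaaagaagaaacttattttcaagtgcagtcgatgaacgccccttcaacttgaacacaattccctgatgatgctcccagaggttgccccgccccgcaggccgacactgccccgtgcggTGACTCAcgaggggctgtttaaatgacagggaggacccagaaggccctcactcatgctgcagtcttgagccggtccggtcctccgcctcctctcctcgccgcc
Cpn2, chr16:30267483-30267782, minus strand: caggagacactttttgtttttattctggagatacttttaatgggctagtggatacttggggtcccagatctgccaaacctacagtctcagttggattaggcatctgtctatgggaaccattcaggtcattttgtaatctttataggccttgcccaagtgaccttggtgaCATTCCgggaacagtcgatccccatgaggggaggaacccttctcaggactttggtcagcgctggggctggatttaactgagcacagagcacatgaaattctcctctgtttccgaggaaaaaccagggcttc
Rgl3, chr9:21989404-21989703, minus strand: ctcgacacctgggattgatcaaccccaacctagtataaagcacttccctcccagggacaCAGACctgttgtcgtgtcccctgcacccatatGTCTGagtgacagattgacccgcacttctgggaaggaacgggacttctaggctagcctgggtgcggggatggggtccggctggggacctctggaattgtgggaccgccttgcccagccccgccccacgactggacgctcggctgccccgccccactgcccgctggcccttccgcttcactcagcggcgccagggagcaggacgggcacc
Epor, chr9:21963527-21963826, minus strand: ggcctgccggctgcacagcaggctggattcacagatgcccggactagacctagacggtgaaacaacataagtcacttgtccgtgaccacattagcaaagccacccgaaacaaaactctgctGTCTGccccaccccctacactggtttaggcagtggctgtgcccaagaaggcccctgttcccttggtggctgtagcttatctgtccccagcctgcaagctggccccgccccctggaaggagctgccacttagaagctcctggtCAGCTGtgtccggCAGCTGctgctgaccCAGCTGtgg
The Ptprg and Lepr windows held none of the 5 motifs, and 36 and 18 CpG dinucleotides. The Lrrc15 window held an AP-1 match whose first base lay 53 bases before the start, and the Cpn2 window a TEAD match 81 bases before it. The Rgl3 window had 2 SMAD matches, and the Epor window 1 SMAD match before the start and 3 E-boxes after it, with no overlap between matches. The 4 windows of the neighbouring genes thus share no motif within the Lrrc15 pair and the SMAD core within the Rgl3 pair.

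Windows of this kind were found for 42 of the 52 gained genes, 30 of them within 100 bases of the GENCODE start. Bhlhe22, Foxl1, Gm20518, Gria1, Mtmr7, Rgs20, Sorcs2, Syn3, Tagln and Vwa1 had no entry. The TEAD core was present in 9 of the 42 windows (21.4%) against 11.3% of 8879 windows of measured protein-coding genes. The SMAD core was present in 16 (38.1% against 46.8%), the E-box in 7 (16.7% against 14.2%), the AP-1 site in 2 (4.76% against 3.63%) and the CArG box in 0 (against 1.32%). The median number of CpG dinucleotides was 15.5 in the gained genes' windows and 21 in all windows. Matches describe letters only and show no binding.

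Many gained genes were scarce in control cells. The mean shSCR level was below 1 CPM for 22 of the 52 (42.3%), a range that held 2.26% of the 10994 protein-coding genes. It was 1 to 5 CPM for 14 more (26.9%, against 11.6%) and 20 CPM or more for 4 (7.69%, against 63.4%). In shPostn the means ran from 1.01 CPM for Myh7 to 156 CPM for Lrrc15, with a median of 6.73 CPM against 32.2 CPM over all measured protein-coding genes. Across the list the log2 fold change (shPostn minus shSCR) had a median of 1.96 and a range of 1.16 for Dhrs4 to 7.22 for Ptprg, beside a median of 0.01 over all genes tested. It was above 3 for 7 genes, namely Ptprg, Mamld1, Slc12a5, Foxl1, Lepr, Tagln and Dlk2. Ptprg was the one gained gene under 1 CPM in shSCR and above 50 CPM in shPostn, and the other 6 that reached 50 CPM, Lrrc15, Plpp3, Myo7a, Rabepk, Nt5e and Rgs16, were all above 12 CPM in shSCR. The rule was applied to these same levels, so nothing is read from the shares.

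**Figure D1:**
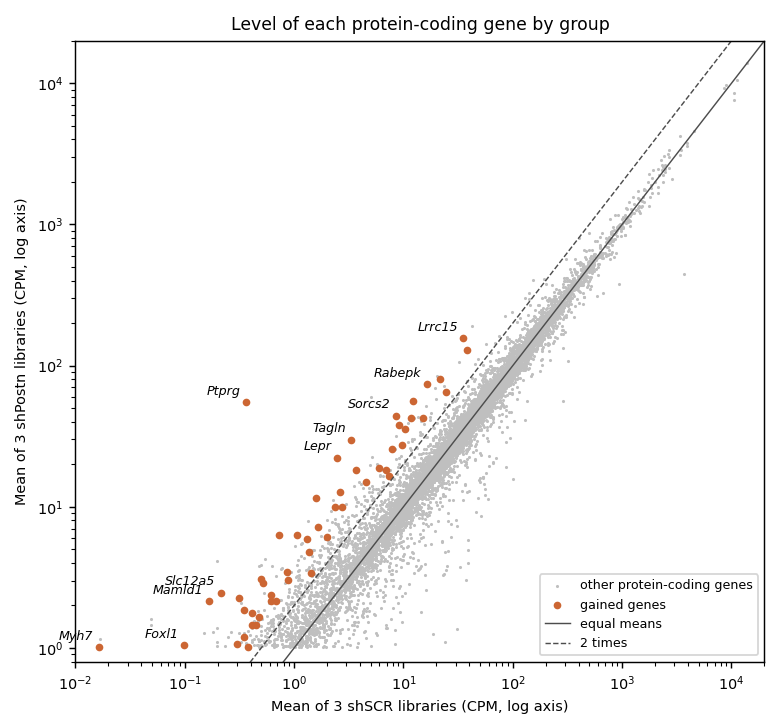
Mean CPM of the 3 shPostn libraries (vertical, log axis) against the mean of the 3 shSCR libraries (horizontal, log axis) for each protein-coding gene outside chromosomes 12 and 18 with a mean shPostn level of at least 1 CPM and a shSCR mean above 0; orange points are the gained genes, the solid line marks equal means and the dashed line 2 times. Ptprg lies far to the left of the other genes of its shPostn level, at 0.366 against 55.1 CPM, and 22 gained genes lie left of 1 CPM on the horizontal axis.

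**Figure D2:**
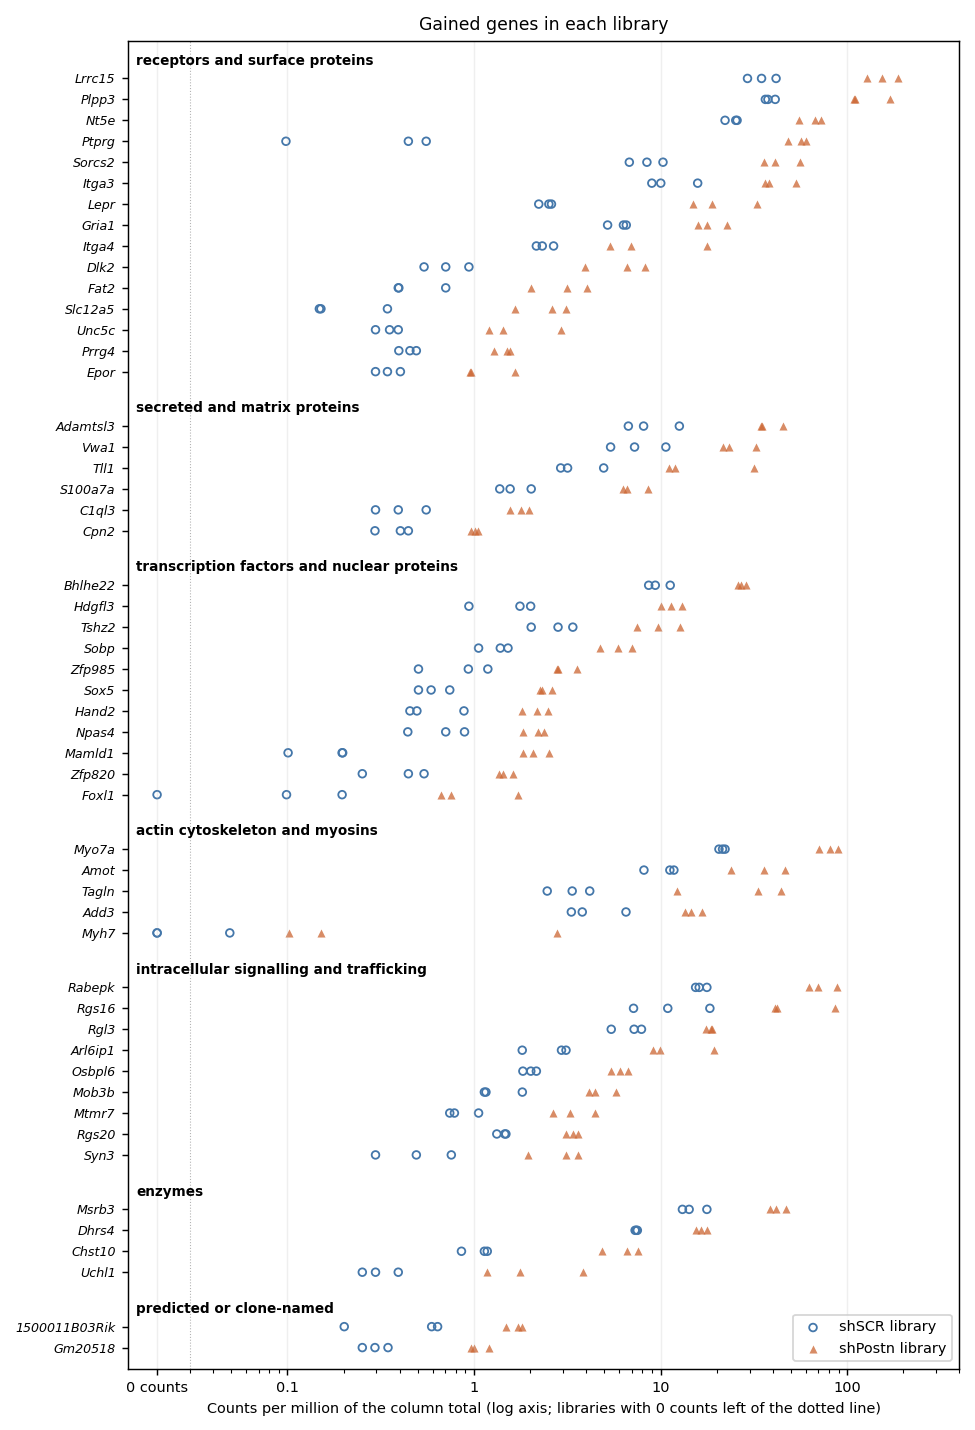
CPM of each gained gene (rows, grouped by function and sorted by mean shPostn level) in each of the 3 shSCR libraries (open circles) and 3 shPostn libraries (triangles) on a log axis; libraries with 0 counts are drawn left of the dotted line. The groups are separate in every row because the rule requires it, while the distance between them and the spread of the triangles differ, from 151-fold between means for Ptprg to 2.23-fold for Dhrs4.

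Cell surface proteins made up the largest group, with 15 of the 52 genes. Ptprg (chromosome 14, 11553532 to 12242041, plus strand, GRCm38 as for all coordinates) encodes a receptor-type tyrosine phosphatase that removes phosphate from tyrosines of signalling proteins, and measured 0.445, 0.0982 and 0.554 CPM in shSCR replicates 1 to 3 against 56.7, 48.2 and 60.4 CPM in shPostn. The shSCR libraries were at the edge of detection and the shPostn libraries lay close together. Over the groups this was 3274 counts summed over shPostn against 22 summed over shSCR, a ratio of 151 (95% exact Clopper-Pearson interval 99.9 to 242); intervals of this kind cover counting error only, as the labels name no molecular identifiers. Of 10 receptor tyrosine phosphatase genes measured, Ptprg alone was in the list, and in the fit over all genes 1 was called higher and 1 lower. The counts for gene families given here and further on stand against 0.473% gained among all measured protein-coding genes, and 3.84% called higher and 4.02% called lower among the 10956 of them tested.

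Lepr, the leptin receptor, which signals through JAK2 and STAT3 and marks mesenchymal stem cells, measured 2.22, 2.601 and 2.52 CPM in shSCR replicates 1 to 3 against 14.95, 18.98 and 33.03 CPM in shPostn. The means were 2.45 ± 0.198 against 22.3 ± 9.49 CPM (SD, n = 3 each), and shPostn replicate 3 was the highest library. Epor, the erythropoietin receptor, is another single-chain cytokine receptor and stayed scarce, at 0.297, 0.344 and 0.403 CPM in shSCR replicates 1 to 3 against 0.953, 0.969 and 1.66 CPM in shPostn. Its shPostn replicate 3 was also the highest. Among cytokine and TGF-beta family receptors, listed without Epor, Lepr was the only gained gene of 55 measured, and 3 of the 54 tested were called higher and 3 lower. Nt5e, the CD73 enzyme that turns extracellular AMP into adenosine, measured 25.3, 25.7 and 22.2 CPM in shSCR replicates 1 to 3 against 54.9, 66.9 and 72.9 CPM in shPostn. Plpp3, a phosphatase at the cell surface that degrades lysophosphatidic acid and sphingosine-1-phosphate, measured 36.5, 41.2 and 37.6 CPM in shSCR replicates 1 to 3 against 110, 109 and 170 CPM in shPostn. The replicates of each group lay close together for Nt5e, while Plpp3 was highest in shPostn replicate 3. Per kilobase of merged exon length Plpp3 had the highest level of the list, 41.1 CPM per kb in shPostn, followed by Lrrc15 with 29.4, Rgs16 with 24.1, Rabepk with 19.3 and Tagln with 15.02. Ptprg reached 5.004 CPM per kb, below the median of 6.88 over all measured protein-coding genes, while the median of the gained genes was 1.24.

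Adhesion receptors formed a further part of this group. Lrrc15 (chromosome 16, 30269302 to 30283256), a leucine-rich repeat membrane protein found on TGF-beta-stimulated fibroblasts and mesenchymal stem cells, measured 34.8, 29.2 and 41.6 CPM in shSCR replicates 1 to 3 against 187, 154 and 127 CPM in shPostn. It had the highest CPM of the list, and its lowest shPostn library was 3.06 times its highest shSCR library. Itga3, the integrin alpha 3 chain that pairs with beta 1 as a laminin receptor, measured 15.8, 8.98 and 10.03 CPM in shSCR replicates 1 to 3 against 53.5, 36.3 and 38.1 CPM in shPostn. Itga4, the alpha 4 chain that binds fibronectin and VCAM1 and is also abundant on leukocytes, measured 2.32, 2.16 and 2.67 CPM in shSCR replicates 1 to 3 against 6.92, 5.36 and 17.8 CPM in shPostn. For Itga4 shPostn replicate 3 stood well above the others and is also the library with 330 CPM of pan-leukocyte markers, none of which was at 0 in all libraries. Their part in the Itga4 value was not tested. Without that library the log2 fold change of Itga4 was 1.38 instead of 2.07. The 6.92 and 5.36 CPM of the other shPostn libraries lie above all shSCR libraries by the rule. These were the 2 gained genes among 19 integrin chains measured (10.5%, against 0.473% of all), of which 2 were called higher and 1 lower, with a median log2 fold change of 0.71. Itgb2, an integrin chain and pan-leukocyte marker, had 5.12, 1.63 and 31.3 CPM in shPostn replicates 1 to 3 against 2.82 to 7.91 CPM in shSCR. The part of leukocyte integrins in the share and the median was not tested. Fat2, an atypical cadherin, had means of 0.498 ± 0.1798 against 3.06 ± 1.003 CPM (shSCR against shPostn, ± SD, n = 3 each, as for the further means given this way), while 0 of 13 classical and protocadherin genes measured were in the list. Prrg4, a membrane protein with a vitamin K-dependent Gla domain, had means of 0.447 ± 0.0481 against 1.45 ± 0.1504 CPM.

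Several surface genes of the list are best known from neurons. Sorcs2, a sorting receptor of the VPS10 family that binds proneurotrophins, measured 8.45, 10.3 and 6.802 CPM in shSCR replicates 1 to 3 against 55.7, 41.3 and 35.8 CPM in shPostn. Gria1, the GluA1 subunit of AMPA-type glutamate receptors, measured 6.33, 5.202 and 6.55 CPM in shSCR replicates 1 to 3 against 15.95, 17.7 and 22.7 CPM in shPostn. Slc12a5, the potassium-chloride cotransporter KCC2 that keeps chloride low in neurons, measured 0.148, 0.344 and 0.151 CPM in shSCR replicates 1 to 3 against 1.66, 3.11 and 2.62 CPM in shPostn. The rule requires the separation in each, and Slc12a5 had only 13 counts over all shSCR libraries (146 against 13 counts, ratio 11.4 with interval 6.48 to 21.98). Another surface gene, not placed with the neuronal ones, was Dlk2, a membrane protein with EGF-like repeats related to the Notch ligand-like Dlk1. Dlk2 measured 0.939, 0.5398 and 0.705 CPM in shSCR replicates 1 to 3 against 8.28, 6.63 and 3.93 CPM in shPostn. Here shPostn replicate 3 was the lowest of its group. Among the neuronal ones, Unc5c, a receptor for the guidance cue netrin, had means of 0.347 ± 0.0483 against 1.85 ± 0.933 CPM, with its highest level in shPostn replicate 3. Gained genes known from neurons but not at the cell surface were Syn3, C1ql3, Uchl1, Npas4 and Bhlhe22, a grouping made after the members were known. Syn3, synapsin III of synaptic vesicles, had means of 0.514 ± 0.231 against 2.900 ± 0.854 CPM. C1ql3, a secreted C1q-like synaptic organiser, had means of 0.414 ± 0.1302 against 1.77 ± 0.205 CPM. Uchl1, a neuronal deubiquitinating enzyme, had means of 0.314 ± 0.0719 against 2.25 ± 1.39 CPM, and Npas4, a transcription factor induced by neuronal activity, of 0.679 ± 0.225 against 2.14 ± 0.2696 CPM. None of the 4 reached 3 CPM in its shPostn mean. Of the Schwann and neuronal markers Snap25, Syt1 and Sox10 were at 0 in all shPostn libraries, and the summed level of the list was 36.0 to 44.2 CPM in shSCR and 20.6 to 32.0 CPM in shPostn, nearly all of it from Tubb3.

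The 6 secreted proteins included matrix proteins and a metalloprotease. Adamtsl3, a secreted glycoprotein related to the ADAMTS proteases but without a protease domain, measured 6.72, 12.6 and 8.11 CPM in shSCR replicates 1 to 3 against 45.2, 34.9 and 34.4 CPM in shPostn. Its highest shSCR library was replicate 2 and its highest shPostn library replicate 1. Tll1, a tolloid-like metalloprotease that trims procollagens and cleaves the BMP inhibitor chordin, measured 2.92, 4.96 and 3.17 CPM in shSCR replicates 1 to 3 against 11.1, 11.9 and 31.9 CPM in shPostn. The Tll1 level of shPostn replicate 3 was well above those of the other shPostn libraries, and without it the log2 fold change was 1.66 instead of 2.31. Vwa1, a von Willebrand factor A domain protein of basement membrane-like matrix, measured 10.7, 5.398 and 7.26 CPM in shSCR replicates 1 to 3 against 32.3, 21.6 and 23.2 CPM in shPostn. Replicate 1 was the highest of both groups for Vwa1. S100a7a, a small calcium-binding protein of the S100 family, had means of 1.65 ± 0.336 against 7.15 ± 1.24 CPM. Cpn2, the regulatory subunit of carboxypeptidase N, had means of 0.381 ± 0.0776 against 1.01 ± 0.0423 CPM. Tll1 and Adamtsl3 were the gained genes among 69 matrix enzymes, proteases and inhibitors measured (2.9%, against 0.473% of all), where 7 were called higher and 2 lower, beside 3.84% and 4.02% of all. Of 70 collagens and structural matrix genes 0 were gained (4 called higher and 7 lower of 69 tested), and of 75 growth factor and cytokine genes also 0 (6 higher and 2 lower of 74 tested). With 0.473% of all genes gained, nothing is read from a 0 in lists of this size.

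Nuclear proteins contributed 11 genes, 7 of them below 1 CPM in control cells and none above 30 CPM in shPostn. Bhlhe22, a basic helix-loop-helix repressor of neural development (chromosome 3, 18054174 to 18057517), was the most abundant and measured 11.3, 8.64 and 9.37 CPM in shSCR replicates 1 to 3 against 28.8, 26.1 and 27.1 CPM in shPostn. Hdgfl3, a nuclear protein of the hepatoma-derived growth factor family, measured 0.939, 2.01 and 1.76 CPM in shSCR replicates 1 to 3 against 10.1, 11.3 and 12.99 CPM in shPostn. Tshz2, a teashirt zinc finger homeobox factor, measured 2.03, 3.39 and 2.82 CPM in shSCR replicates 1 to 3 against 9.73, 12.8 and 7.503 CPM in shPostn. In all 3 genes the shPostn libraries lay within 2-fold of each other. Mamld1, a mastermind-like domain protein (chromosome X, 71050256 to 71156056), measured 0.198, 0.196 and 0.101 CPM in shSCR replicates 1 to 3 against 2.51, 1.84 and 2.06 CPM in shPostn, which was 127 counts summed over shPostn against 10 summed over shSCR, a ratio of 12.9 (95% exact Clopper-Pearson interval 6.804 to 27.6). Foxl1, a forkhead factor of mesenchymal cells (chromosome 8, 121127940 to 121130644), measured 0.0988, 0.196 and 0 CPM in shSCR replicates 1 to 3 against 0.753, 0.663 and 1.71 CPM in shPostn. Foxl1 rested on 62 against 6 counts (ratio 10.5, interval 4.57 to 29.8), and without shSCR replicate 2, its highest control library, the log2 fold change was 4.22 instead of 3.32. Without shPostn replicate 3 its shPostn mean was below 1 CPM and it no longer met the rule. Sobp, a sine oculis-binding nuclear protein, measured 1.38, 1.52 and 1.06 CPM in shSCR replicates 1 to 3 against 7.02, 4.74 and 5.94 CPM in shPostn. Sox5, a SOX factor that works with Sox6 and Sox9 in cartilage, had means of 0.611 ± 0.1203 against 2.39 ± 0.193 CPM. Hand2, a basic helix-loop-helix factor of heart, limb and neural crest, had means of 0.6103 ± 0.237 against 2.16 ± 0.347 CPM. The zinc finger genes Zfp820 (0.412 ± 0.147 against 1.46 ± 0.132 CPM) and Zfp985 (0.874 ± 0.345 against 3.05 ± 0.452 CPM) belong to a large family of near-copies, so their counts are uncertain where reads could be split between paralogs. Among 121 developmental transcription factors measured Sox5, Mamld1 and Foxl1 were gained (2.48%, against 0.473% of all). Of the 121 genes 15 were called higher and 2 lower, beside 3.84% and 4.02% of all protein-coding genes tested; Hand2, Bhlhe22, Npas4 and Tshz2 were not on that list. Of 346 zinc finger genes 2 were gained (0.578%), close to the 0.473% of all.

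Of the 5 genes of the actin cytoskeleton, Myo7a was the most abundant. Myo7a (chromosome 7, 98051060 to 98119524), an unconventional myosin known from sensory hair cells, measured 21.5, 20.6 and 22.2 CPM in shSCR replicates 1 to 3 against 70.3, 88.9 and 81.1 CPM in shPostn. Tagln (chromosome 9, 45929619 to 45936058), the actin-binding transgelin of smooth muscle, measured 3.36, 4.17 and 2.47 CPM in shSCR replicates 1 to 3 against 44.00, 12.2 and 33.4 CPM in shPostn, with shPostn replicate 2 well below the others. Amot, angiomotin, which binds actin and the coactivator YAP, measured 11.2, 8.15 and 11.8 CPM in shSCR replicates 1 to 3 against 35.97, 46.4 and 23.97 CPM in shPostn. For Amot it was replicate 2 that was highest in shPostn and replicate 3 lowest. Add3, an adducin that links actin to spectrin, had means of 4.55 ± 1.73 against 14.98 ± 1.65 CPM. Myh7, the slow muscle and cardiac myosin heavy chain, measured 0, 0.0491 and 0 CPM in shSCR replicates 1 to 3 against 0.151, 0.102 and 2.77 CPM in shPostn, so that its mean rested on shPostn replicate 3, and over the groups it had 60 counts against 1. The myosin ratio of counts was 61.1 with an interval of 10.6 to 2452, and Myh7 left the list without shPostn replicate 3. Among 58 measured actin cytoskeleton and contractile genes 3 were gained (5.17%), against 0.473% of all. Of the 57 tested 14 were called higher and 2 lower, beside 3.84% and 4.02% of all protein-coding genes tested, and the median log2 fold change was 0.30. The 9 pericyte and smooth muscle markers summed to 344 to 433 CPM in shSCR and 554 to 729 CPM in shPostn. Acta2 alone was at 99.7 to 181 CPM in shSCR and 289 to 553 CPM in shPostn. Every shPostn library lay above every shSCR library for 2 of the 9 (Acta2 and Rgs5, the latter under 1 CPM throughout) and below for 3 (Des, Notch3 and Kcnj8, the last at 0 in all shPostn libraries). Over the 10994 measured protein-coding genes these shares were 15.9% and 15.5%, so nothing is read from the 2 counts. Some of the markers, Rgs5 and Kcnj8 among them, were too scarce to belong to the 10994. Cnn1, calponin of smooth muscle, had 2.03, 3.14 and 1.36 CPM in shSCR replicates 1 to 3 against 14.5, 2.40 and 10.9 CPM in shPostn, with replicate 2 the lowest in shPostn as for Tagln. Notch3 had 14.6, 35.1 and 21.3 CPM in shSCR replicates 1 to 3 against 1.20, 2.70 and 6.09 CPM in shPostn. The remaining 3 markers, Cspg4, Myh11 and Abcc9, overlapped between groups, the last 2 below 0.2 CPM in every library. Fewer cells of a type and less RNA per cell cannot be told apart in such sorted bulk samples. The part of these markers in the levels of Tagln was not tested. Of 5 skeletal muscle markers, Acta1, Ckm and Myh4 among them, all stayed below 1 CPM in every library.

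The 9 genes of signalling and trafficking inside the cell held 3 regulators of G proteins. Rgs16, which shortens signalling by G protein-coupled receptors, measured 18.4, 7.17 and 10.9 CPM in shSCR replicates 1 to 3 against 86.1, 42.1 and 40.9 CPM in shPostn. Replicate 1 was the highest library in both groups of Rgs16. Rgs20, of the same family, had means of 1.42 ± 0.0854 against 3.39 ± 0.251 CPM. Rgl3, an exchange factor-like protein that couples Ras to Ral GTPases, measured 7.22, 7.901 and 5.44 CPM in shSCR replicates 1 to 3 against 17.6, 18.8 and 18.5 CPM in shPostn. These were the gained genes in a list of 188 measured genes for small GTPases and G protein regulators, which counts the Rgs family (1.6%). Of the 187 tested 14 were called higher and 3 lower. Rabepk (chromosome 2, 34777556 to 34799912), a kelch-repeat protein that binds the transport GTPase Rab9, was the most abundant of the group and measured 16.1, 17.7 and 15.4 CPM in shSCR replicates 1 to 3 against 88.3, 70.2 and 62.3 CPM in shPostn. Arl6ip1, which shapes the endoplasmic reticulum, had means of 2.62 ± 0.707 against 12.8 ± 5.63 CPM. Osbpl6, an oxysterol-binding lipid transfer protein, had means of 2.001 ± 0.166 against 6.06 ± 0.633 CPM. The means were 1.37 ± 0.386 against 4.78 ± 0.889 CPM for Mob3b, of the MOB family of kinase-binding proteins, and 0.862 ± 0.172 against 3.45 ± 0.901 CPM for the phosphoinositide phosphatase Mtmr7. By the rule the shPostn libraries lay above the shSCR ones in all 4, most widely for Arl6ip1. Syn3 overlaps Timp3, which lies on the opposite strand and had means of 84.4 and 224 CPM (shSCR, shPostn); how strand was used in the counting is not given in the sources used here, so reads of that pair may not be fully separated. Of 214 kinases, phosphatases and phosphodiesterases measured 0 were gained, with 12 of 212 tested called higher and 14 lower. The shares of all measured protein-coding genes were 0.473% gained and, among those tested, 3.84% higher and 4.02% lower. Nothing is read from the 0 or from the counts called in this list.

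Among 4 enzymes, Msrb3, which repairs oxidised methionines, measured 14.2, 17.7 and 13.1 CPM in shSCR replicates 1 to 3 against 46.8, 38.8 and 41.5 CPM in shPostn. Dhrs4, an NADPH-dependent reductase of retinal and other carbonyls, measured 7.41, 7.51 and 7.31 CPM in shSCR replicates 1 to 3 against 17.8, 15.4 and 16.4 CPM in shPostn. Dhrs4 had the smallest fold of the list but also one of the smallest spreads, 7.41 ± 0.102 against 16.5 ± 1.18 CPM (SD, n = 3 each). Chst10, the sulfotransferase that completes the HNK-1 sugar epitope of neural adhesion molecules, measured 1.14, 1.18 and 0.857 CPM in shSCR replicates 1 to 3 against 7.53, 6.58 and 4.83 CPM in shPostn. Its shSCR libraries were all near 1 CPM. Chst10 was the gained gene among 69 glycosyltransferases and sulfotransferases (1.45%), of which 8 of 67 tested were called higher and 5 lower. Uchl1 varied most within shPostn among these enzymes, and without shPostn replicate 3 its log2 fold change was 2.21 instead of 2.82. The 2 remaining gained genes have only predicted or clone names, 1500011B03Rik and Gm20518. Gm20518 lies on the same strand as Dgcr2, which had group means of 123 and 118 CPM, so its 63 against 18 counts may be shared with that gene.

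Of 26 gene families and functional lists, 16 held at least 1 gained gene and 10 held none, and 26 of the 52 gained genes fell in a list. Beside the lists already described, 0 of 72 G protein-coupled receptors, 0 of 71 interferon and MHC genes, 0 of 105 cyclin, CDK and mitotic genes, 0 of 51 KLF, EGR, AP-1 and ETS factors, 0 of 27 receptor tyrosine kinases and 0 of 20 tetraspanins were gained. With 0.473% of all genes gained, nothing is read from these zeros. Of 8 mesenchymal stem cell markers Lepr and Nt5e were gained. Every shPostn library lay above every shSCR library for 3 of the 8 (Lepr, Nt5e and Cd44) and below for 1, the TGF-beta coreceptor Eng, beside 15.9% and 15.5% of the 10994 protein-coding genes. Eng had 45.5, 53.6 and 40.4 CPM in shSCR replicates 1 to 3 against 4.82, 7.86 and 14.7 CPM in shPostn. The sum of the 8, most of it from Pdgfrb and Cd44, was 1578 to 1746 CPM in shSCR and 1336 to 1651 CPM in shPostn. Of 7 fibroblast markers 0 were gained. Every shPostn library lay above every shSCR library for 0 of the 7 and below for 3 (Dcn, Pdpn and Lum), beside the same 15.9% and 15.5%. Their sum was 30418 to 35287 CPM in shSCR and 20321 to 41179 CPM in shPostn, so the groups overlapped. None of the markers of leukocytes, macrophages, T or B cells, endothelium, adipocytes, keratinocytes or erythroid cells was a gained gene. The rule uses the lowest shPostn library, while the leukocyte and macrophage sums were highest in shPostn replicate 3. All 4 adipocyte markers and 6 of 8 T and NK markers were under 1 CPM in every library. Nothing is read from this absence.

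The gained genes differed in how evenly the shPostn libraries carried them. The highest shPostn library was at most 1.3 times the lowest for 19 genes, Bhlhe22, Rgl3, Msrb3 and Dhrs4 among them, and at least 2 times the lowest for 11, namely Lepr, Dlk2, Foxl1, Unc5c, Uchl1, Arl6ip1, Tagln, Tll1, Rgs16, Myh7 and Itga4. The highest level fell in shPostn replicate 1 for 22 genes, in replicate 2 for 11 and in replicate 3 for 19. Relative to each gene's shPostn mean the median was 0.974 in replicate 1, 0.932 in replicate 2 and 1.01 in replicate 3. These values are centred near 1 because each gene is divided by its own mean. Residual Postn was 212, 475 and 644 CPM in the same libraries, and its part in the spread was not tested. With any 1 of the 6 libraries left out 47 of the 52 still met the rule. Epor, Cpn2, Myh7, Gm20518 and Foxl1 did not, all of them genes near the floor of 1 CPM. Leaving out a library cannot lower the ratio, so only that floor could remove a gene. Nothing is read from the 47.

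**Figure D3:**
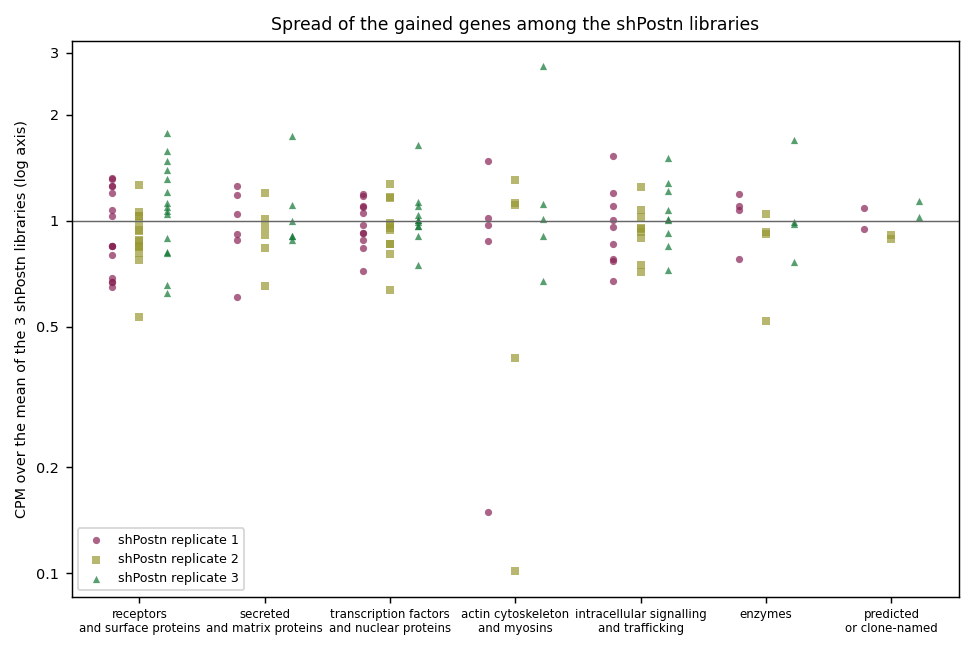
Level of each gained gene in each shPostn library divided by its mean over the 3 shPostn libraries (vertical, log axis), by functional group; point shapes and colours mark the replicates and the line marks the gene's own mean. Most points lie close to the line in every group, and the point furthest above it, in the actin cytoskeleton group, is Myh7 in replicate 3.

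At the edge of the rule the division is a matter of small differences. The 3 genes just inside had ratios of lowest shPostn to highest shSCR of 2.03 (Amot), 2.02 (Vwa1) and 2.01 (Itga4). The 3 just outside had 1.996 (Tspan2, 1.48 against 0.741 CPM), 1.99 (Rnf207, 6.34 against 3.19 CPM) and 1.96 (Pik3c2b, 8.46 against 4.32 CPM). Tspan2 had a mean of 0.544 CPM in shSCR and 4.28 CPM in shPostn, a log2 fold change of 2.97 against the list's median of 1.96, and missed the rule by its lowest shPostn library. With library sizes scaled by TMM, Itga4 left the list at a ratio of 1.97. Myh7 left it at a mean shPostn level just under the floor of 1 CPM, with a ratio of 2.07.

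Beyond level, the gained genes were spread over 16 chromosomes and many of them were long. Of the 52 genes 16 spanned more than 100 kb of genome (30.8%), against 12.3% of the other 10942 measured protein-coding genes, and the median span was 41.9 kb against 23.7 kb. Sox5 (954 kb), Ptprg (689 kb), Syn3 (444 kb), Tshz2 (439 kb), Sorcs2 (381 kb), Unc5c (370 kb) and Gria1 (319 kb) were the longest. The difference in share was present among genes below 10 CPM in shPostn (9 of 28, 32.1%, against 297 of 2481) and among those at 10 CPM or more (7 of 24, 29.2%, against 1053 of 8461). Merged exon length had medians of 4673 and 4568.5 bases in the gained and in all measured protein-coding genes. These are counts over genes, with no test.

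**Figure D4:**
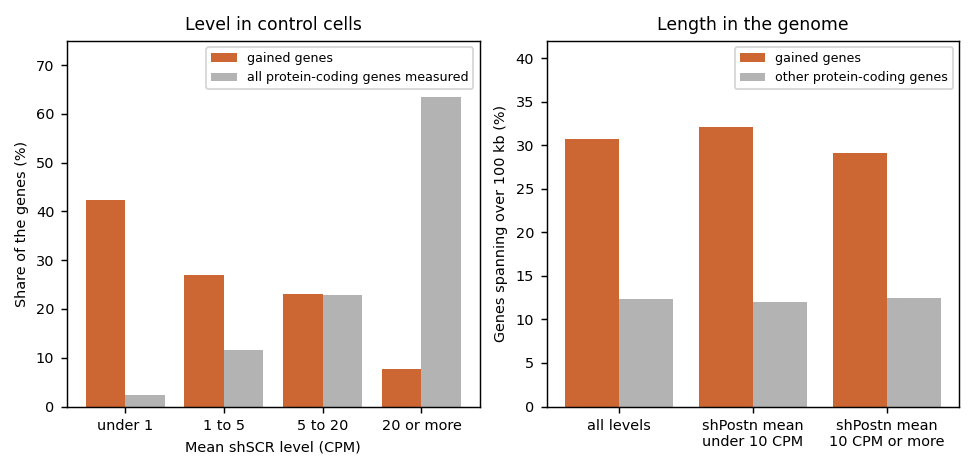
Left, share of the gained genes (orange) and of all measured protein-coding genes (grey) by mean shSCR level in CPM; right, share of genes that span more than 100 kb among gained (orange) and other (grey) protein-coding genes, over all levels and on either side of 10 CPM in shPostn. Control levels below 1 CPM held 42.3% of gained genes and 2.26% of all, and 30.8% of gained genes were longer than 100 kb against 12.3% of the others.

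Most genes beside the gained genes did not pass the test. Within 500 kb on either side lay 509 tested genes that were not gained themselves; the median of their log2 fold changes was 0.01, and 22 of them (4.32%) were called higher, against 4.61% of all genes tested. Among these was Foxc2 beside Foxl1, another forkhead gene, with means of 1.80 and 5.28 CPM (shSCR, shPostn), and Leprot upstream of Lepr, with means of 182 and 214 CPM. Of the gained genes 8 (15.4%) had another gained gene within that distance, compared with 4.32% of the other measured protein-coding genes. Lrrc15 and Cpn2 lie in tandem on the minus strand of chromosome 16 with 1.80 kb and no protein-coding gene between them. Rgl3 and Epor lie in tandem on the minus strand of chromosome 9 with 5.20 kb and no protein-coding gene between them. In both tandem pairs the upstream gene was the more abundant, at 156 CPM for Lrrc15 against 1.01 CPM for Cpn2 and 18.3 CPM for Rgl3 against 1.19 CPM for Epor in shPostn; per kilobase of exon the values were 29.4, 0.222, 4.66 and 0.601. Whether transcripts run from one gene of a pair into the next was not tested. Hdgfl3 and Adamtsl3 on chromosome 7 point in opposite directions, 401 kb apart, and Dhrs4 and Myh7 on chromosome 14 are 484 kb apart.

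**Figure D5:**
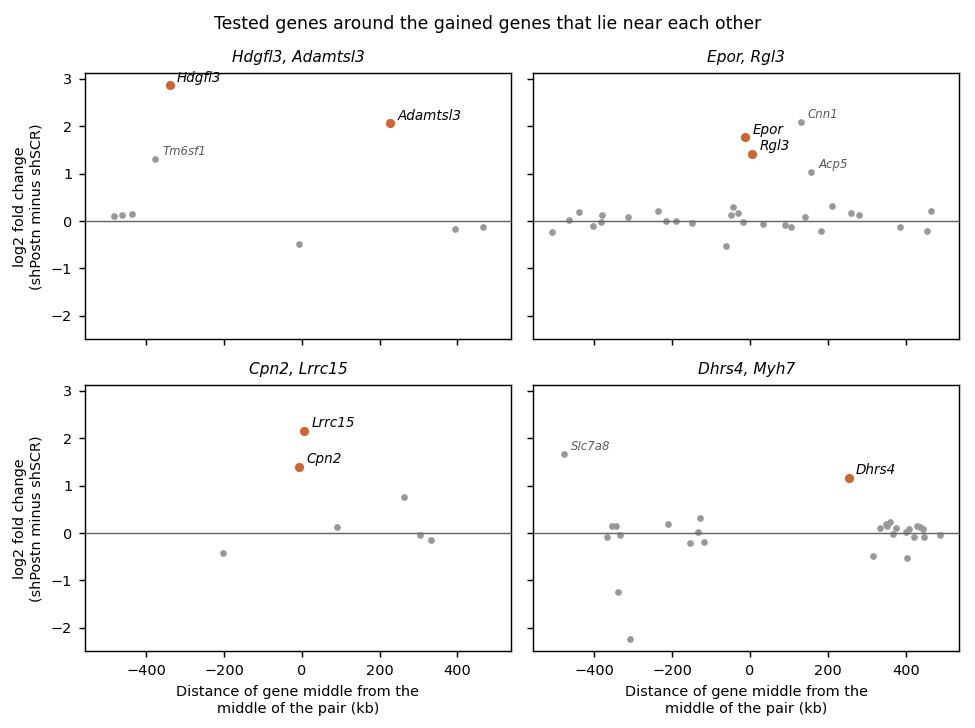
Log2 fold change (shPostn minus shSCR) of each tested gene against its distance in kb from the middle of each of the 4 pairs of gained genes that lie within 500 kb of each other. Orange points are gained genes, grey points other genes, named where above 1. Myh7 is not drawn because it did not enter the fit. In the Lrrc15 and Rgl3 panels the gained genes sit side by side, while most genes around them lie near 0.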

How the data were processed

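Messenger RNA of 6 libraries (3 shSCR, 3 shPostn) was sequenced from strand-specific poly(A) libraries, per the labels' protocols. The authors deposited expected counts per Ensembl gene, made with Salmon on mm10 per the submitters' processing notes; the sources used here do not give versions, annotation or use of strand. Values were whole for each of the 35727 genes, and rounding changed none. GENCODE M21 (GRCm38) gave 35493 genes a position, symbol and biotype.

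CPM are counts over the column total. The rule, its members and all gene lists were chosen with earlier results of these data known; functional groups were assigned once members were known. Genes given by replicate were chosen by rule (Epor, Myh7 and the markers given so were added): the 12 widest separations, the 12 highest shPostn means, the 3 most abundant of each functional group, 3 genes on either side of the threshold, and Postn; the other gained genes, given mostly as means, and all named genes that are neither gained nor at the threshold (neighbours and cell type markers among them) were named after their values were seen.

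For the background, edgeR 4.0.16 (R 4.3.3; filterByExpr with a minimum count of 10, TMM, robust quasi-likelihood F-test, Benjamini-Hochberg over 12819 genes, threshold 0.05) compared shPostn with shSCR, with no covariate. On simulated data for this comparison with 12819 genes it called 68 of 100 genes changed 2-fold, 79 of 100 changed 4-fold and 9 of 12619 unchanged ones. Libraries of a group differed beyond sampling noise (chi-square per degree of freedom of 9.75 to 54.6). Alternatives were DESeq2 1.42.0, voom in limma 3.58.1, other scalings, filters, ratios and floors, each library left out, and the replicate number as a block. Depth of 19603269 to 20376554 counts limits precision at low levels.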

Additional observations from a re-analysis of the deposited data

How the results depend on the processing

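The number of gained genes was 125 with a ratio of 1.5 and 16 with a ratio of 3, by construction, and 50 to 55 with TMM or relative log expression library sizes, a floor of 0.5 CPM or zero counts kept (an alternative chosen after seeing the data, 54); it was 42 with a floor of 2 CPM and 60 to 74 with 1 library left out, where fewer libraries must clear the ratio. The edgeR count of 1300 called genes was 307 to 2220 with 1 library left out: 429, 307 and 404 without shSCR replicates 1, 2 and 3, 637 without shPostn replicate 2 and 2220 without shPostn replicate 3. Gained genes called higher were 26 to 49 with 1 library left out (26, 26 and 29 without shSCR replicates 1, 2 and 3), and 23 were called under each of these. Replicate numbers did not pair the libraries (same-numbered libraries had correlations of deviations of −0.07, −0.13 and −0.44), and with the replicate block 735 genes and 35 gained genes were called. DESeq2 called 1930 genes and 51 gained genes, and limma-voom 1305 genes and 48 gained genes. The rule used the same contrast, so nothing is read from these counts of gained genes called. The median log2 fold change of gained genes stayed between 1.90 and 2.04. Of 710 log2 fold changes of single gained genes under these settings 0 changed sign and 17 moved by more than their SE. The rule had put every shPostn library at least 2 times above every shSCR library for these genes. Nothing is therefore read from the 0 or from the steady median. Low counts limit the 14 gained genes with fewer than 30 counts over the shSCR libraries.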
